A study of Homo sapiens with 6 samples.

Results

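The 9 genes described here encode enzymes of serine synthesis and of the folate-bound one-carbon cycle. PHGDH, PSAT1 and PSPH make serine, and SHMT1 and SHMT2 turn serine into glycine. MTHFD1, MTHFD1L, MTHFD2 and ALDH1L2 act on the carbon units so released. The 9 genes were chosen by name for their place in the pathway, with earlier results of these data known. They are 9 of 35810 genes with a transcript in the deposited data and of 13737 genes that could be tested. All 9 passed the filter on low counts. PHGDH is also a gene that the study itself marked in a plot of these same libraries, so its values are not independent of that choice.

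Cells make serine from 3-phosphoglycerate, a glycolytic intermediate. PHGDH oxidizes it, PSAT1 adds an amino group and PSPH removes the phosphate. SHMT2 in mitochondria and SHMT1 in the cytosol then pass a carbon of serine to tetrahydrofolate, and the enzymes downstream carry it to formate, thymidylate and purines. Many tumour cell lines express the mitochondrial arm strongly, and the transcription factor ATF4 is known to drive serine synthesis and mitochondrial folate genes when amino acids run short.

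Polyadenylated RNA was sequenced from DLD-1 cells, an established human colorectal adenocarcinoma line, in 2 groups of 3 replicates. Every library came from SPT5-AID cells, in which the elongation factor SPT5 carries a degron tag that auxin can trigger; the labels name no auxin treatment for these libraries. The cells carried a lentiviral short hairpin RNA against ARMC5 (shARMC5) or a nontargeting hairpin (shNT) and had been selected with puromycin. ARMC5 is a substrate adaptor of the CUL3 ubiquitin ligase. The methods list 2 hairpins against ARMC5 without saying which one was sequenced, so effects of the hairpin sequence and of ARMC5 loss cannot be told apart. The tagged line was made in an earlier study. The comparison asks which mRNAs differ once ARMC5 is depleted.

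The libraries held 26201112 to 40866478 assigned reads. The median Spearman correlation of a library was 0.99538 to 0.9961 with its own group and 0.99286 to 0.9946 with the other group. Such values rest mostly on differences in level between genes, so they cannot show whether a library was unusual at small fold changes. ARMC5, the targeted gene, stood at 10.8, 12.0 and 12.9 CPM (reads per 1000000) in the shARMC5 libraries and at 23.0, 25.9 and 26.7 in the shNT libraries. Its level with the hairpin was 0.471 of the control (log2 fold change -1.09, SE 0.08, adjusted p = 5.32e-07). CPM are scaled by edgeR's TMM factors, fold changes are shARMC5 against shNT, and adjusted p-values come from edgeR's quasi-likelihood test with Benjamini-Hochberg adjustment over all 13737 genes, a gene being called at an adjusted p under 0.1. TPM are the deposited values per 1000000, divided by transcript length and summed per gene, without TMM factors. The epithelial identity was visible in EPCAM, at 982 to 1051 TPM, and in KRT8, at 3060 to 3649 TPM. However, CDX1 was at 0 and CEACAM5 reached at most 0.356 TPM. Of 7 tested epithelial markers 3 keratins were called higher (KRT18, KRT8 and KRT19) and 1 gene lower (VIL1, log2 fold change -1.30), against 7.75% of all tested genes called in either direction. EPCAM (0.03), CDH1 (0.00) and CDX2 (0.01) were not called. The summed level of the list, most of it KRT8 and KRT18, was 8531 to 8831 TPM in shARMC5 against 7535 to 8052 TPM in shNT libraries. Of 11 stromal, endothelial and blood markers 4 could be tested; edgeR and DESeq2 each called 0 and 0 had an unadjusted p under 0.05, with a summed level of 2.3 to 3.01 TPM against 2.37 to 3.47 TPM, and COL3A1, LUM and CD3E at 0. Whether the keratin and VIL1 differences have a part in the results below was not tested. In bulk RNA, fewer cells of a kind and less RNA per cell cannot be told apart, and the p-values measure only the spread between these libraries.

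Per length, PSAT1 and PHGDH had the highest mean levels of the pathway, while PSPH, also in serine synthesis, lay below MTHFD1. PSAT1 had a mean of 271 TPM, PHGDH 235 TPM, MTHFD2 200 TPM, SHMT2 199 TPM, MTHFD1 164 TPM, SHMT1 91.9 TPM, PSPH 85.5 TPM, MTHFD1L 45.2 TPM and ALDH1L2 0.23 TPM. The neighbours MTHFD2 and SHMT2 kept that order in 5 of 6 libraries and SHMT1 and PSPH in 4 of 6, so these pairs did not differ beyond their spread. PHGDH was above 95.6% of all tested genes by TPM, PSAT1 above 96.4% and SHMT2 and MTHFD2 each above 94.8%, while ALDH1L2 was above 2.66%. SHMT2, the mitochondrial hydroxymethyltransferase, exceeded its cytosolic counterpart SHMT1 by 2.03 to 2.57 times in TPM. The summed TPM of the mitochondrial genes was 1.66 to 1.83 times that of cytosolic SHMT1 and MTHFD1 across the 6 libraries.

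**Figure D1:**
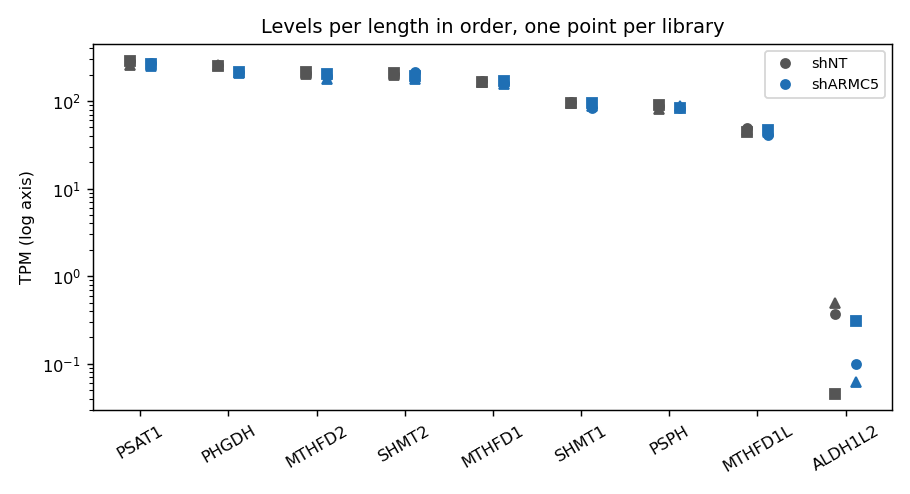
TPM of each gene in each library, on a log axis, ordered by mean level; the shape of a point gives the replicate number, grey is shNT and blue is shARMC5. Apart from ALDH1L2, all genes lie between 40.8 and 289 TPM, and ALDH1L2 is at most at 0.499 TPM.

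The start regions of the 4 members whose unadjusted p was under 0.05 are shown, so that the called gene PHGDH stands beside the members that came next by p but were not called. They run from 250 bases before to 50 bases after the RefSeq start site (GRCh38.p14), read 5′ to 3′ on the gene's strand. Capitals mark the CCAAT box, the letters TATAAA of a TATA box, the E-box CACGTG, and TGATGNAA, the letters of a site shared by ATF4 and C/EBP proteins. Each was searched on both strands, and the motifs were chosen after the data had been seen.
PHGDH: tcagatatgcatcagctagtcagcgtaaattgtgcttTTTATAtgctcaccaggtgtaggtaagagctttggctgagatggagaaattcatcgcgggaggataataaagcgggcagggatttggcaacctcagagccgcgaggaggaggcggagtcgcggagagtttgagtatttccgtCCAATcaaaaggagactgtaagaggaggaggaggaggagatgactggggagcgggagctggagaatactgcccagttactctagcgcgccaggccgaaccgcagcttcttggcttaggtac
PSAT1: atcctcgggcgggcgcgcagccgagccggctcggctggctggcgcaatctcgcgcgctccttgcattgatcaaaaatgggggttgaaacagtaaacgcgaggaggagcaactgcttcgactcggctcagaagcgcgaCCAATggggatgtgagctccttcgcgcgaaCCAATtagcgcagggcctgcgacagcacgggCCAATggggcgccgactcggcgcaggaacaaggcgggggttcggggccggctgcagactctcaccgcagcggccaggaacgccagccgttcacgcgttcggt
MTHFD2: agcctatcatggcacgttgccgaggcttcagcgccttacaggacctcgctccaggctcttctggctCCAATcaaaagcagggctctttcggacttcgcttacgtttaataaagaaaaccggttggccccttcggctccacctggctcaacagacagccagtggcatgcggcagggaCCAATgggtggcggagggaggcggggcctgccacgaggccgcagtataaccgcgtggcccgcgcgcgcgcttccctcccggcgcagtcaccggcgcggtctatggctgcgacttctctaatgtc
MTHFD1L: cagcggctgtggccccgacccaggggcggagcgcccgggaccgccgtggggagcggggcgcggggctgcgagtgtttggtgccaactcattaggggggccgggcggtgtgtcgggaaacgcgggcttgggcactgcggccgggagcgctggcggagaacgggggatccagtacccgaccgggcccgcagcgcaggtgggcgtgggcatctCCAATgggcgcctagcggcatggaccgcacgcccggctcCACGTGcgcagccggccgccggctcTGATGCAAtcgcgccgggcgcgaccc
These windows lie at chr1:119711684-119711983, chr9:78296875-78297174, chr2:74198365-74198664 and chr6:150866083-150866382, all on the plus strand, and they hold the first exon start of the transcripts PHGDH-202, PSAT1-202, MTHFD2-201 and MTHFD1L-212. The table has 4 windows for MTHFD1L, of which 1 holds none of the motifs and the other 3 overlap; the one shown starts a transcript with 13.4% of the reads of MTHFD1L, while MTHFD1L-211, with 61.8%, starts upstream at 150865679, outside it. In the window shown, TGATGNAA lies just after the start. CCAAT occurred in at least 1 window of all 6 members with an entry in the RefSeq table (also in MTHFD1 and SHMT1), against 39.7% of 27305 genes. Counted by window, it was in 8 of the 9 windows of these members, against 34.6% of 35116 windows. PSAT1 carried 3 copies, at 113, 83 and 52 bases before the start, and PHGDH 1 copy at 71 bases before it. TATAAA occurred in PHGDH, as its reverse complement TTTATA at 213 bases before the start, against 11.5% of all windows and 14% of genes. CACGTG occurred in MTHFD1 and MTHFD1L (7.26% of all windows, 8.77% of genes), and TGATGNAA in MTHFD1L (3.62% of windows, 4.46% of genes). A match says only that these letters are in the window. PSPH, SHMT2 and ALDH1L2 are named without a sequence.

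PHGDH, on chromosome 1 (119648411 to 119744218, plus strand), was lower with the ARMC5 hairpin in every library. It stood at 253, 251 and 241 CPM in the shARMC5 libraries and at 280, 283 and 272 CPM in the shNT libraries. The groups did not overlap, with 253 CPM the highest shARMC5 value and 272 CPM the lowest shNT value. The level with the hairpin was 248 ± 6.22 CPM against 278 ± 5.4 CPM (SD, n = 3 each), which is 10.8% lower. PHGDH fell by 0.16 on the log2 scale (SE 0.03, 95% interval -0.22 to -0.10, adjusted p = 0.00194 in edgeR's test). By p it ranked 163 among the tested genes. In TPM it stood at 215, 214 and 209 against 259, 254 and 257, a ratio of 0.828, and again the groups did not overlap. A two-sided exact permutation test of 3 against 3 libraries cannot go below 0.1, and it gave 0.1 for both CPM and TPM. PHGDH was 1 of 9 members called lower; of all tested genes 3.3% were called lower, 4.44% higher and 7.75% in either direction, and among the genes averaging 70 CPM or more, where 8 of the 9 members lie, 4.29% were called lower. With an offset for transcript length the fold change was -0.2559 in edgeR and -0.2563 in DESeq2. At its size of -0.16, 320 genes called lower had a more negative fold change, and 37.3% of the called genes had a smaller absolute one.

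PSAT1, the aminotransferase next in the pathway, stood at 363, 361 and 351 CPM against 378, 392 and 364 CPM. The groups were separated only narrowly, between 363 and 364 CPM. The fold change was not called (log2 fold change -0.08, SE 0.03, 95% interval -0.14 to -0.01, adjusted p = 0.163). It was -0.0495 without shNT replicate 2, and -0.1021 without shNT replicate 3, where PSAT1 was called (adjusted p = 0.0971). A block for replicate number also called PSAT1 (-0.0762, adjusted p = 0.0312). PSPH, the phosphatase that completes serine synthesis, stood at 76.3, 79.2 and 80.0 against 83.6, 83.7 and 79.6 CPM, with overlapping groups (log2 fold change -0.07, 95% interval -0.15 to 0.01, adjusted p = 0.354; -0.0140 with the length offset). The ratio of PHGDH to PSAT1 in TPM was 0.799 to 0.823 in the shARMC5 and 0.881 to 0.991 in the shNT libraries.

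Among the mitochondrial genes, MTHFD2, the dehydrogenase and cyclohydrolase, stood at 250, 261 and 246 CPM against 258, 278 and 264 CPM. Its groups overlapped through shARMC5 replicate 2. It was not called (log2 fold change -0.08, SE 0.03, 95% interval -0.15 to -0.01, adjusted p = 0.195). The fold change was -0.0477 without shNT replicate 2 and -0.1041 without shARMC5 replicate 2, not called in either setting. A block for replicate number called MTHFD2 (-0.0792, adjusted p = 0.0338). MTHFD1L, the mitochondrial formate ligase, stood at 81.7, 86.6 and 80.4 against 86.8, 87.7 and 88.8 CPM; the groups did not overlap, though narrowly (86.6 against 86.8 CPM), and the fold change was -0.08 (95% interval -0.16 to 0.00, adjusted p = 0.268). SHMT2 stood at 238, 232 and 233 against 245, 242 and 236 CPM, with overlapping groups (log2 fold change -0.04, 95% interval -0.09 to 0.02, adjusted p = 0.506; -0.0246 without shNT replicate 1 and -0.0636 with the length offset). ALDH1L2, the mitochondrial formyltetrahydrofolate dehydrogenase, was barely detected, at 8 to 23 reads a library, so a change in it was not measurable at this depth (log2 fold change -0.43, 95% interval -1.43 to 0.58). Leaving out a library gave -0.788 without shNT replicate 2 to -0.0618 without shNT replicate 3, and the length offset in edgeR gave -1.0384. The cytosolic genes showed no call: SHMT1 was at 111, 115 and 114 against 112, 117 and 117 CPM (log2 fold change -0.02, 95% interval -0.09 to 0.05, and -0.0435 to -0.0074 with a library left out), and MTHFD1 at 341, 353 and 341 against 341, 351 and 349 CPM (log2 fold change -0.01, 95% interval -0.06 to 0.05). For SHMT1 the scale mattered. In TPM it stood at 82.5, 94.2 and 86.9 against 97.7, 95.8 and 94.6, narrowly without overlap (ratio 0.915, exact permutation p = 0.1). Its average effective transcript length was 6.48% longer in shARMC5 libraries. With a length offset its log2 fold change was -0.1103, still not called (adjusted p = 0.431). SHMT1-210, a transcript of 332 bases with 1.92% of the gene's reads, held 19.8% of its TPM. That transcript stood at 11.9, 20.4 and 15.5 against 21.2, 20.3 and 21 TPM, from 43 to 96 reads a library, so the separation in TPM leans on few reads.

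**Figure D2:**
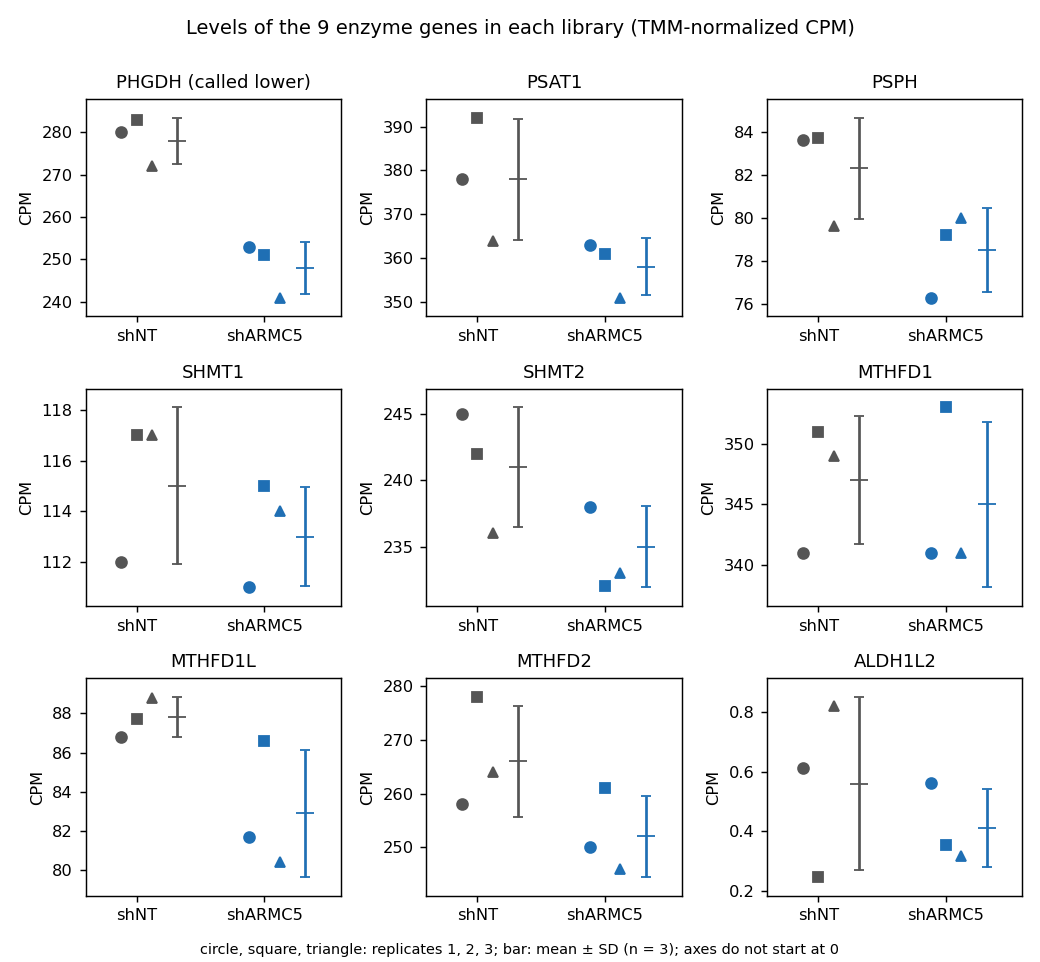
CPM of each gene in the 3 shNT and 3 shARMC5 libraries, with mean and SD beside the points; each panel has its own axis, which does not start at 0. PHGDH has the clearest gap between groups, PSAT1 and MTHFD1L a gap no wider than the symbols, and the other genes overlap.

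All 9 log2 fold changes were below 0 (that of MTHFD1 was 0.0005 without shARMC5 replicate 1), against 50.5% of all tested genes, with a median of -0.08 against 0.00 over all genes. Without shNT replicate 2 the median was -0.0495. In 3 of 9 members (PHGDH, PSAT1 and MTHFD1L) the shARMC5 libraries all lay below the shNT libraries in CPM, against 10.9% of tested genes. In TPM this held for 2 of 9 (PHGDH and SHMT1), against 9.65% of tested genes, and PSAT1 and MTHFD1L overlapped, so the separation of the groups depends on the unit for PSAT1, MTHFD1L and SHMT1. Of the 9, 4 had an unadjusted p under 0.05 (PHGDH, PSAT1, MTHFD2 and MTHFD1L), all lower, against 8.28% of tested genes with such a p and a lower level. The 9 genes share libraries and scaling, so these counts are not independent of each other. The members were also chosen with earlier results of these data known. The shares of all tested genes are therefore given for scale only and test nothing.

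**Figure D3:**
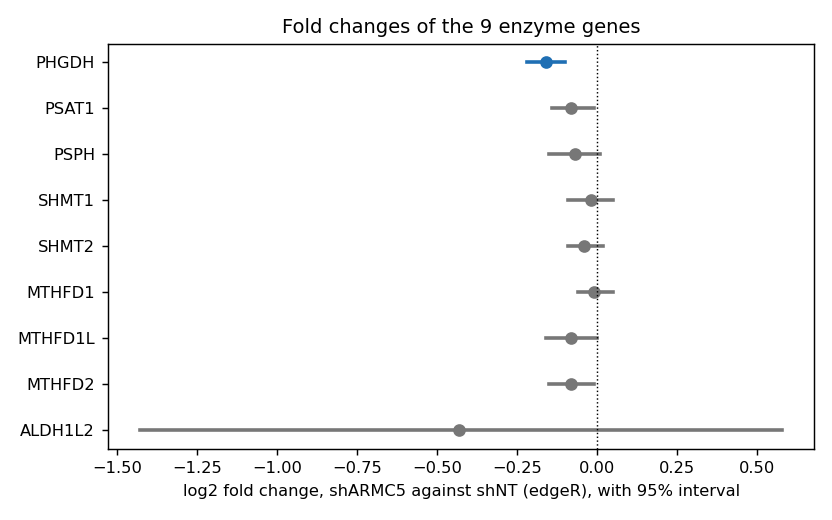
Log2 fold change of each gene with its 95% interval from edgeR; blue marks the called gene and the dotted line is no change. The interval of PHGDH ends at -0.10, the intervals of PSAT1 and MTHFD2 end at -0.01, and that of ALDH1L2 spans -1.43 to 0.58.

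Of 34 annotated PHGDH transcripts in the deposited files, 21 reached 10 reads in a library and 15 could be tested, and 3 held 87.2% of the reads. PHGDH-202, a protein-coding transcript of 1882 bases, took 49.3% of the gene's reads (log2 fold change -0.18, SE 0.11), PHGDH-230 took 21.3% (log2 fold change -0.22, SE 0.17) and PHGDH-209 took 16.6% (log2 fold change -0.04, SE 0.33). PHGDH-215, a short transcript of 725 bases annotated as a target of nonsense-mediated decay, took 2.29% of the reads. It held 0, 141 and 152 reads in the shARMC5 and 207, 354 and 282 in the shNT libraries. Its log2 fold change of -1.51 was not called (SE 1.39, unadjusted p = 0.329 in edgeR's test). PHGDH-207, of 508 bases, held 160 reads in shNT replicate 3 and 0 in every other library. The average effective transcript length of PHGDH was 1662, 1649 and 1587 bases against 1587, 1561 and 1455 bases. It weights by TPM the effective lengths that the software estimates for each library, so it does not reflect the splits alone. The ratio between groups was 0.828 in TPM, which are divided by length, and 0.892 in CPM, which are not. The software divides reads that fit several transcripts, and such splits were unstable: SHMT2-231 held 0 reads in shARMC5 replicate 2 against 647 and 762 in the other shARMC5 libraries, and MTHFD1L-212 held 0 reads in shARMC5 replicate 1 and in shNT replicate 2. Of the 64 transcripts of the 9 genes that could be tested with edgeR, 0 were called, 25 had a log2 fold change above 0 (6 of 15 for PHGDH) and 1 had an unadjusted p under 0.05, SHMT2-232, at 940, 1214 and 666 against 428, 605 and 650 reads (log2 fold change 0.69, SE 0.22, adjusted p = 0.837).

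**Figure D4:**
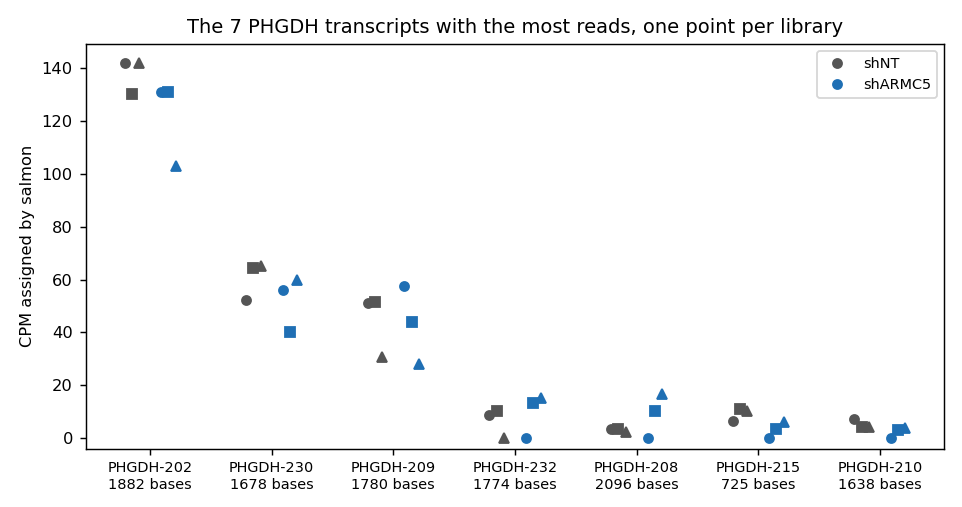
CPM assigned to each of the 7 PHGDH transcripts with the most reads, one point per library, with transcript length under each name. The main transcript PHGDH-202 overlaps between groups, and several minor transcripts drop to 0 in single libraries.

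The library kit does not keep the strand, so reads from sequence shared by genes on opposite strands cannot be told apart. Gene spans overlapped on opposite strands for SHMT1 with SMCR8, MTHFD1 with ZBTB25, MTHFD2 with SLC4A5, SHMT2 with NDUFA4L2, and ALDH1L2 with NOPCHAP1 and WASHC4. Of these partners 0 were called, and overlap of exons was not measured. MTHFD2 also overlapped a protein-coding gene without a symbol, which had at most 8.7 reads and could not be tested. Of 14 annotated pseudogenes that carry a member's name, 7 had a read, and only PSPHP1 reached 10 reads in a library (30.1 to 77 reads, log2 fold change -0.32, adjusted p = 0.572). PSAT1P1, PSAT1P3, PSAT1P4, MTHFD2P1, MTHFD1P1 and SHMT1P1 had at most 8 reads.

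Of 62 tested genes in 6 neighbouring lists 6 were called, or 9.68%, against 7.75% of all tested genes, and the calls went in both directions. SLC1A4, a neutral amino acid carrier that takes up serine, stood at 153, 153 and 146 CPM against 185, 182 and 173 CPM, without overlap, and fell by 0.26 on the log2 scale (SE 0.03, adjusted p = 0.000162). It was the 1 gene called of 8 tested serine and glycine carriers, in which SLC1A5 was the most abundant and was not called (log2 fold change 0.02). Purine synthesis had 13 genes tested: PPAT, its committed step, fell by 0.26 (79.4, 89.6 and 84.7 against 103, 102 and 100 CPM, adjusted p = 0.00106) and IMPDH1, in guanine nucleotide synthesis, rose by 0.16 (82.6, 79.9 and 74.5 against 71.6, 70.5 and 69.7 CPM, adjusted p = 0.0299), with IMPDH2, the most abundant, at 0.04. Among 15 tested folate enzymes and carriers, MTHFS rose by 0.28 (23.1, 22.5 and 23.8 against 18.0, 19.4 and 19.6 CPM, adjusted p = 0.0154), and TYMS, the most abundant, was at 0.00. Of 11 methionine cycle and transsulfuration genes AHCY, which clears S-adenosylhomocysteine, rose by 0.13 (323, 312 and 320 against 287, 299 and 285 CPM, adjusted p = 0.00883). A transcript length offset in edgeR ended the calls of PPAT, MTHFS, AHCY and IMPDH1 (adjusted p 0.13, 0.2, 0.135 and 0.448). The folds of PPAT, MTHFS and AHCY were then -0.2422, 0.2597 and 0.1269, and the same offset in DESeq2 kept the calls of PPAT (0.0117) and AHCY (0.0238). The call of IMPDH1 was also lost without shARMC5 replicate 1 or 2 (0.124 each) or shNT replicate 3 (0.101), with folds of 0.1314, 0.1543 and 0.1539, and its fold with the length offset was 0.1206. Glycine cleavage and serine breakdown had 7 genes tested, of which edgeR and DESeq2 each called 0 and 0 had an unadjusted p under 0.05, with DLD the most abundant at a log2 fold change of -0.02.

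The list medians were 0.00 for folate genes, 0.02 for glycine cleavage, 0.01 for purine synthesis, -0.06 for the methionine cycle, -0.01 for carriers and -0.02 for transcription factors, against 0.00 over all tested genes. With a library left out, these medians were -0.0445 to 0.0142 for folate genes, -0.0356 to 0.0456 for glycine cleavage, -0.0145 to 0.0166 for purine synthesis, -0.0223 to 0.0008 for carriers and -0.0302 to -0.0025 for transcription factors. The methionine cycle median was -0.0089 without shNT replicate 1, -0.0092 without shNT replicate 3 and -0.0196 without shARMC5 replicate 3, and that of the carriers -0.0536 with the length offset. Signs for folate, glycine cleavage, purine and carrier genes thus turned with single libraries. Of 8 transcription factors linked to serine synthesis genes, ATF5 was called higher (56.5, 57.6 and 59.6 against 50.1, 51.4 and 55.3 CPM, log2 fold change 0.15, adjusted p = 0.0781), a call lost in DESeq2 (0.156), with a length offset in edgeR (0.361) and without shARMC5 replicate 2 or 3 (0.192 and 0.236) or shNT replicate 1 or 2 (0.284 and 0.159). The call was also lost with library size scaling only (0.112), the length offset in DESeq2 (0.332) and transcripts outside the annotation kept (0.196). The fold of ATF5 stayed between 0.1189 and 0.1548 in these 9 settings. ATF4 was at 433, 425 and 424 against 440, 442 and 429 CPM, with a log2 fold change of -0.03 (95% interval -0.08 to 0.02), and MYC at 0.01 (95% interval -0.14 to 0.16, turning to -0.0014 with library size scaling only); neither was called.

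**Figure D5:**
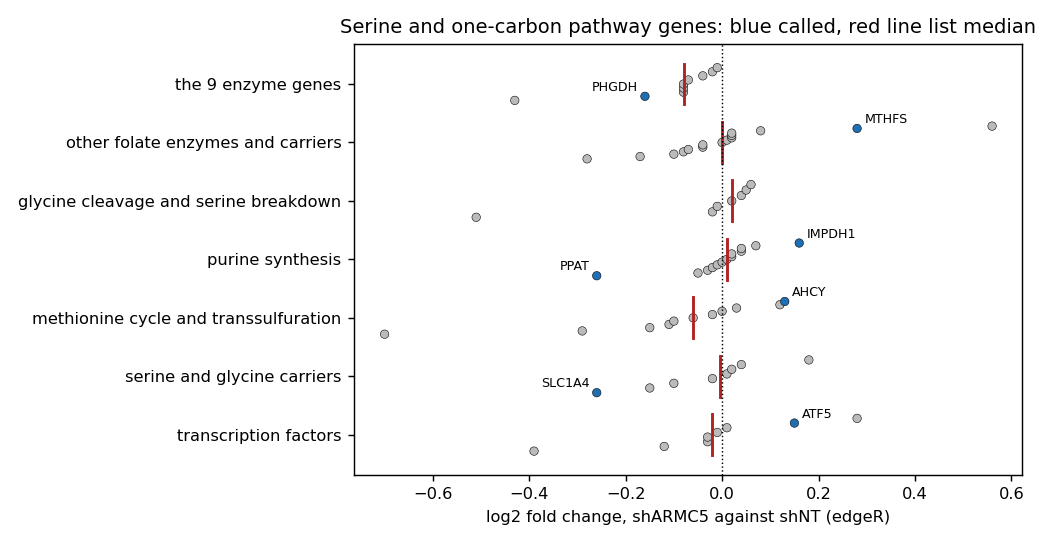
Log2 fold change of each tested gene in the 9-gene set and 6 neighbouring lists; blue points are called and labelled, and red lines are list medians. The calls lie on both sides of 0, and the 9-gene set lies wholly below 0.

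The genes whose pattern over the 6 libraries was nearest to that of PHGDH, by root mean square difference of centred log2 CPM among 9327 genes averaging 10 CPM or more, were PPIL1 (0.0129), ERG28 (0.0149), SNX13 (0.0158), TRIM14 (0.0173) and CEP128 (0.0188). The nearest other member was PSAT1, 291st in that order, followed by MTHFD1L at 562 and MTHFD2 at 591, while SHMT1 and MTHFD1 were at 2508 and 2522.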

How the data were processed

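Polyadenylated RNA was sequenced from 6 libraries, 3 per group. Per the labels and methods, the authors used cutadapt 4.2 for trimming and Salmon 1.9.0, with its GC bias correction, for transcript abundance. The deposited tables give, per transcript, an estimated count of reads, TPM and lengths. Transcripts were matched by identifier to GENCODE 44 (165533 of 177456); the unmatched ones held 2.96 to 3.04% of reads and were left out. Gene totals of the estimated counts, rounded to whole numbers, entered the test where 3 or more libraries reached 10 counts. The test was that of edgeR 4.0.16 (quasi-likelihood, TMM factors, condition only, Benjamini-Hochberg adjustment, called under 0.1); the study's own analysis used DESeq2, run here as an alternative (1.42.0). The standard error is a Wald-type error from the fit's weights. TPM were summed per gene. The fits were tested on simulated counts with changes much larger than that of PHGDH, so that test says nothing about changes as small.

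The members and gene lists were chosen with earlier results of these data known. Named genes are the members, ARMC5, ATF4, MYC, each list's called genes (at most 5 each way) and its most abundant gene, the 5 genes nearest to PHGDH, and members' pseudogenes with reads; cell type markers and genes overlapping a member are named besides as checks. Same-numbered libraries were not treated as pairs. Alternatives covered scaling, filter, length offset, tool, threshold, unmatched transcripts, a replicate block and each library left out.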

Additional observations from a re-analysis of the deposited data

How the results depend on the processing

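PHGDH was called lower under every gene-level alternative, with adjusted p-values of 0.00391 to 0.0134 when a library was left out, 0.0102 with a transcript length offset in edgeR (fold change -0.2559, against -0.2563 in DESeq2) and 0.0332 with unmatched transcripts kept. None of its transcripts was called on its own (PHGDH-202 -0.1806, PHGDH-230 -0.2229, PHGDH-209 -0.0403). The members called lower numbered 1 to 2 when a library was left out, PSAT1 being added without shNT replicate 3 (adjusted p = 0.0971; range of its fold change -0.1021 to -0.0495), and 3 with a replicate block, which added PSAT1 (-0.0762) and MTHFD2 (-0.0792). Whether the numbers pair the samples is not settled. Deviations from the group means correlated at 0.0026, 0.113 and 0.141 between same-numbered libraries. With the other shNT libraries the values were -0.0319 and 0.0285 for shARMC5 replicate 1 and 0.0483 and -0.16 for replicate 2. For replicate 3 they were -0.0573 and -0.0851. Deviations from a mean of 3 libraries are tied to each other, so these values cannot decide it. Among transcripts with at least 10% of a gene's reads, fold changes turned above 0 for PSPH-201 0.0469, PSPH-210 0.2185, SHMT1-201 0.0661, SHMT2-201 0.0001, SHMT2-202 0.0944, SHMT2-232 0.6863, MTHFD1L-211 0.0336, MTHFD2-203 0.0262; they did so for MTHFD1 with a library left out (-0.0253 to 0.0005), and the value of MYC changed sign with library size only (-0.0014) and with a library left out (-0.0384 to 0.0899). All genes called numbered 1064, of which 610 were higher and 454 lower. The total was 234 with the length offset in edgeR, 568 with it in DESeq2, 532 with unmatched transcripts kept and 1766 with the block. It was 676 at an adjusted p under 0.05. With a library left out it was 536 to 1085 (536 without shNT replicate 1, 600 without shARMC5 replicate 2 and 694 without shNT replicate 3). Higher and lower calls numbered 458 and 495 with library size only, and 139 and 95 with the length offset in edgeR. They numbered 351 and 185 without shNT replicate 1. Of the neighbouring genes, PPAT, AHCY and MTHFS lost their call with the length offset in edgeR (adjusted p 0.13, 0.135 and 0.2, folds -0.2422, 0.1269 and 0.2597), PPAT and AHCY kept it with the offset in DESeq2 (0.0117 and 0.0238), and IMPDH1 and ATF5 lost theirs under several settings, ATF5 among them in DESeq2 (0.156, fold 0.1461) and IMPDH1 with unmatched transcripts kept (0.119, fold 0.1622). The causes were not tested. DESeq2 gave ALDH1L2 no adjusted p, and transcripts under 10% of a gene's reads were fitted but not counted among the alternatives. At 8 to 23 reads, depth limits ALDH1L2.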
